A study of Rattus norvegicus with 9 samples.

Results

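The cerebral cortex of rat pups from the 2500 ppm and 750 ppm groups of a 4-methylimidazole (4-MeI) feeding study was compared, with 3 arrays against 3 and every probe set that is not an array control. The comparison thus runs between a higher and a lower dose, and covers 31042 of the 31099 probe sets on 6 of the 9 arrays of the series. The remaining 3 arrays, from pups on a diet with 0 ppm, entered no test here and are given only as levels. All pups were Hsd:Sprague Dawley rats of the F2b generation, taken on postnatal day 4, with 1 pup from each litter. Their forebears ate 4-MeI continuously from before mating, through repeated pregnancies and across generations. The dams therefore carried and nursed these pups under the same dose, and no dose given to the pup itself is stated. Of 10 pups chosen per group, 3 per group were put on arrays. The labels name neither the sex of a pup nor whether its own dam had seizures, although the series is about exposure in gestation and maternal seizures. The question is whether cortex differs between the doses, which a comparison of each dose with controls does not answer.

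4-MeI is a small imidazole that forms when food browns, and imidazoles as a class include histamine and several inhibitors of cytochrome P450 enzymes. In the first days after birth, the rat cortex is still being wired. Excitatory neurons settle into layers, inhibitory neurons arrive from the ventral forebrain, the transient subplate relays thalamic input, and synapses begin to form. Immature neurons carry a high chloride load, so that GABA and glycine receptors can depolarise them, and the daily clock of the brain is only starting to run. Cortex is dissected next to other structures. The striatum lies beneath it, the meninges cover it, the choroid plexus hangs in the ventricle beside it and the olfactory bulb lies in front, so markers of each were measured too.

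Genes that mark cortex were bright on all 6 arrays. Mef2c, a transcription factor of cortical excitatory neurons, lay between 13.59 and 14.36, on the log2 scale of RMA intensity used throughout, where a difference of 1 is a doubling. The array medians lay between 7.67 and 7.7. Xist, transcribed from the inactive X chromosome, was between 11.4 and 12.39, and the Y-linked Eif2s3y was between 3.47 and 3.64. On 1 array the values went in part against its label. The array of 750 ppm replicate 3 correlated at 0.9952 to 0.9965 with the 2500 ppm arrays, but at only 0.9938 and 0.9941 with those of its own group. On the first principal component of the 6 arrays, which held 46.6% of the variance, it scored 9.4. The other 750 ppm arrays scored -26.1 and -22.6 and the 2500 ppm arrays 18.7, 7.7 and 12.9. On the second component, with 21.5% of the variance, it stood apart from both doses, at 24. There the other 750 ppm arrays scored 0.7 and -2.7, and the 2500 ppm arrays -9.3, -13.6 and 0.8. Results are therefore given with and without 750 ppm replicate 3. That array was singled out from these same values, so calls and adjusted p-values without it are a description and no evidence.

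Across the 31042 probe sets, 3 passed an adjusted p of 0.05 in limma, which is 0.00966% of those tested, with 2 higher (0.00644%) and 1 lower (0.00322%) at 2500 ppm. A larger number differed by a weaker criterion. At an unadjusted p under 0.05 there were 3625 probe sets (11.7%), 1799 of them higher (5.80%) and 1826 below (5.88%). In 4882 (15.7%) the 3 arrays of one dose did not overlap those of the other, with 8.35% higher and 7.38% lower. With the brightest probe set standing for each of 14217 genes, as in the gene lists below, 52.7% of genes were higher by any amount, 6.0% had an unadjusted p under 0.05 on the higher side and 5.47% on the lower side, and the adjusted p of 0.05 was passed by 0.0211%. Without overlap, 8.38% of these genes were higher and 7.85% lower. These shares are the background for the list counts below that use all 6 arrays. Most differences were small. Of the probe sets without overlap, only 134 higher and 205 lower ones reached 0.5 on the log2 scale, and 25 and 10 reached 1. The median difference over all probe sets was 0.014, and the typical residual SD between arrays was 0.0979.

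**Figure D1:**
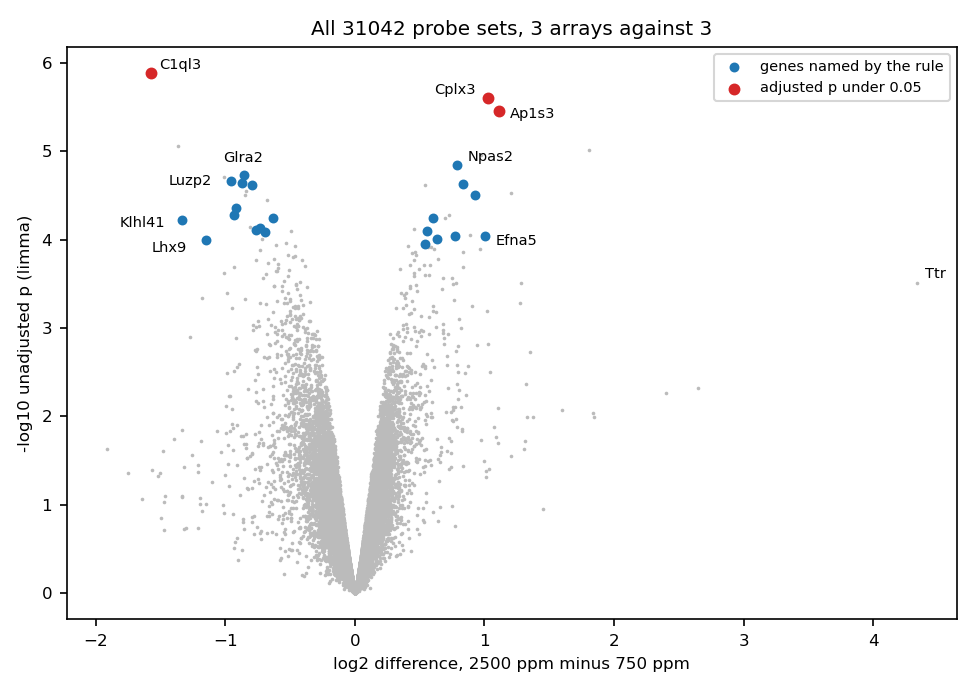
Each point is 1 of 31042 probe sets. The horizontal axis is the log2 difference, 2500 ppm minus 750 ppm, and the vertical axis is the unadjusted limma p as -log10. Red points are the 3 probe sets with an adjusted p under 0.05, blue points the other genes named by the rule. Ttr, at 4.33, has the largest difference without passing.

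The 3 genes that passed were C1ql3, Cplx3 and Ap1s3. C1ql3 encodes a secreted protein of the C1q family that acts at excitatory synapses through an adhesion receptor. Its values were 10.38, 10.53 and 10.46 at 750 ppm, and 9.05, 8.64 and 8.95 at 2500 ppm. The gap between the doses was several times the spread within either. C1ql3 fell by 1.58 from 750 to 2500 ppm (SE 0.11, 95% interval -1.83 to -1.32), a 2.98-fold difference, with a limma adjusted p of 0.0366. The controls, at 10.34, 10.26 and 10.29, were near the 750 ppm arrays. A dimmer probe set of C1ql3 did not share the difference: it was 7.35, 7.39 and 7.48 at 750 ppm and 7.53, 7.43 and 7.57 at 2500 ppm, or 0.10 higher (SE 0.07, limma adjusted p = 0.542). Whether these probe sets read the same transcripts was not tested.

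Cplx3 encodes a complexin, a protein that clamps and primes the vesicle fusion machinery, and it marks subplate neurons. It read 7.48, 7.21 and 7.28 at 750 ppm and 8.37, 8.32 and 8.36 at 2500 ppm, with no overlap. Cplx3 rose by 1.03 (SE 0.08, limma adjusted p = 0.0366), which is 2.04-fold. Here the controls, at 8.32, 8.08 and 8.27, lay beside the 2500 ppm arrays, so the low group was 750 ppm. Its dimmer probe set differed by 0.27 (SE 0.06, limma adjusted p = 0.22). Ap1s3 encodes the small sigma chain of the AP-1 clathrin adaptor, which sorts cargo at the trans-Golgi network. Its values were 7.58, 7.72 and 7.57 at 750 ppm against 8.58, 8.75 and 8.88 at 2500 ppm. The controls, at 7.72, 7.64 and 7.1, sat with 750 ppm. Ap1s3 rose by 1.12 (SE 0.09, limma adjusted p = 0.0366).

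These calls depended on the arrays. None of the 3 passed without 750 ppm replicate 1, without 750 ppm replicate 2 or without 2500 ppm replicate 1, where 0 probe sets passed in limma and 2332, 2774 and 2656 had an unadjusted p under 0.05. C1ql3 passed without 2500 ppm replicate 2 (limma adjusted p = 0.021), and C1ql3 and Ap1s3 passed without 2500 ppm replicate 3 (0.0329 and 0.0415). Cplx3 did not pass there (0.224 and 0.0563). Without 750 ppm replicate 3, all 3 passed. Their differences moved little whichever array was left out, with C1ql3 between -1.66 and -1.54 where its call was lost.

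A further 21 genes were named because their arrays did not overlap, their difference was at least 0.5 and their unadjusted p was among the smallest. With the 3 above they make 24 genes, 11 higher and 13 lower at 2500 ppm, with limma adjusted p between 0.0366 and 0.0797. Because that rule selects on the contrast, the separation of their arrays is a description and no evidence. The controls were not used by the rule. Their mean was nearer to 750 ppm for 22 of the 24 and nearer to 2500 ppm for Cplx3 and Plxnc1, which encodes a semaphorin receptor. For 15 of the 24, the control arrays overlapped those of 750 ppm and not those of 2500 ppm. For 7 they stood apart from both doses. No such count over all probe sets is given, so these tallies describe the 24 genes only.

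**Figure D2:**
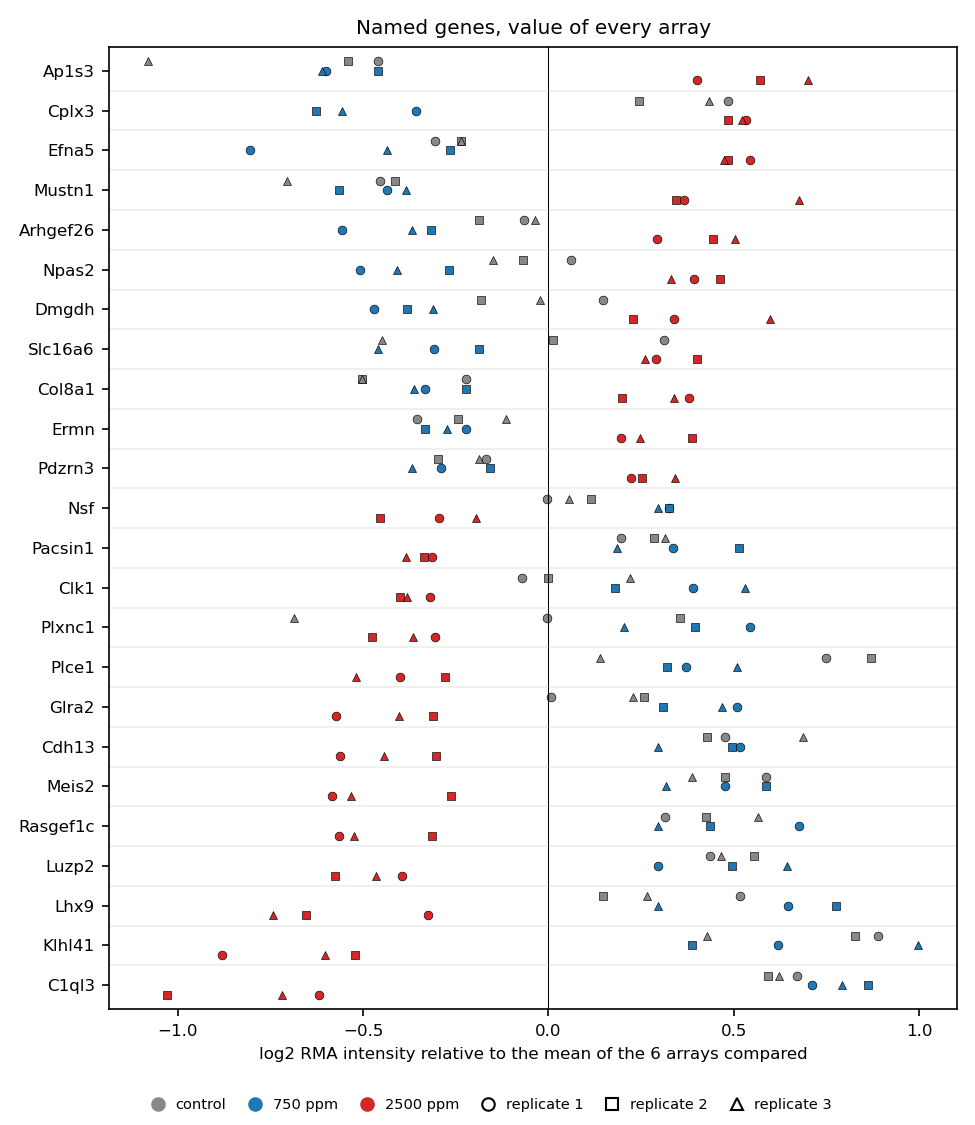
The horizontal axis is the log2 intensity of each array minus the mean of the 6 arrays compared, and each row is 1 of the 24 named genes, ordered by difference. Colour gives the group and shape the replicate number. The controls lie on the 750 ppm side for most rows, and beside 2500 ppm for Cplx3.

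Of these genes, several serve synapses and membrane traffic. Glra2, the glycine receptor subunit that prevails in immature neurons, was 9.13, 8.93 and 9.09 at 750 ppm and 8.05, 8.31 and 8.22 at 2500 ppm. That is a difference of -0.86 (SE 0.09, limma adjusted p = 0.0532), and its other probe set gave -0.63. Nsf, the ATPase that takes apart spent SNARE complexes, was nearly the same on the 750 ppm arrays, at 11.31, 11.31 and 11.28, and lower at 2500 ppm, at 10.69, 10.53 and 10.79. All 3 probe sets of Nsf were lower, by -0.63, -0.54 and -0.39. Pacsin1, which bends membranes during vesicle recycling, was lower on its bright probe set (-0.69, SE 0.09) and higher on a dim one (0.20, SE 0.09), so its direction depends on the probe set.

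Others guide axons or hold cells together. Cdh13, a cadherin anchored to the membrane by a lipid, read 11.59, 11.57 and 11.37 at 750 ppm and 10.51, 10.77 and 10.63 at 2500 ppm. The difference was -0.88 (SE 0.09, limma adjusted p = 0.0532), and its other 2 probe sets gave -0.74 and -0.85. Efna5, a repulsive ephrin that shapes thalamocortical maps, was 9.73, 10.27 and 10.1 against 11.08, 11.02 and 11.01. It stood 1.00 higher at 2500 ppm (SE 0.13, limma adjusted p = 0.0771), with 0.41 on a second, dimmer probe set. Plxnc1 was lower by -0.76 on each of its 2 probe sets. Pdzrn3, a ubiquitin ligase with PDZ domains, was 0.54 higher (SE 0.07).

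Regulators of transcription and signalling were also among them. Npas2, a partner of Bmal1 in the circadian clock, was 0.79 higher and is described with the clock genes. Meis2, a homeobox gene of the striatum and of immature inhibitory neurons, was 13.1, 13.21 and 12.94 at 750 ppm and 12.04, 12.36 and 12.09 at 2500 ppm, a difference of -0.92 (SE 0.11, limma adjusted p = 0.0673). Lhx9, a LIM homeobox gene of the thalamus, was dim, at 6.2, 6.33 and 5.85 against 5.23, 4.9 and 4.81, or -1.15 (SE 0.15). Both are markers of tissue beneath the cortex. The exchange factors differed in direction: Arhgef26, which activates RhoG, was 0.83 higher, Rasgef1c, a Ras-family exchange factor, differed by -0.93. The phospholipase gene Plce1 differed by -0.80 and the splicing kinase gene Clk1 by -0.74.

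Of the last of the 24, most have their known roles outside neurons. Klhl41, a ubiquitin ligase adaptor of skeletal muscle, was dim, with every value below the array medians. It was lower by -1.34 (SE 0.16), with 6.27, 6.04 and 6.65 at 750 ppm and 4.77, 5.13 and 5.05 at 2500 ppm. Mustn1, a small nuclear protein of muscle and bone, was 0.92 higher (SE 0.10), at 8.37, 8.24 and 8.42 against 9.17, 9.15 and 9.48. The short-chain collagen gene Col8a1 was 0.61 higher, Ermn, a cytoskeletal gene of myelinating cells, 0.56 on a dim probe set, Dmgdh of mitochondrial choline breakdown 0.78, and Slc16a6 of the monocarboxylate transporter family 0.64. Luzp2, for which no role is given here, differed by -0.96 (SE 0.10). Other probe sets of Ermn gave 0.15 and 0.07, and that of Luzp2 gave -0.20.

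Markers of the tissues beside the cortex differed by dose or on single arrays. The choroid plexus and ependyma list, for the tissue that makes cerebrospinal fluid and the ciliated cells that line the ventricles, stood highest at 2500 ppm. Of its 17 measured genes 16 were higher, 9 without overlap. In limma 11 were higher at an unadjusted p under 0.05 and none passed. Its median difference was 0.632, against 0.008 over all 14217 genes, of which 8.38% were higher without overlap. Ttr, the transthyretin that choroid plexus secretes, read 9.29, 10.01 and 7.91 at 750 ppm and 14.19, 13.97 and 12.06 at 2500 ppm. Each 2500 ppm array was above each 750 ppm array, but the third 2500 ppm pup was well below the other two. The difference was 4.33 (SE 0.68, limma adjusted p = 0.106), or 3.76 without 750 ppm replicate 3 (adjusted p = 0.0377).

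The same pup was low for other genes of this list. Sostdc1, a secreted inhibitor of BMP and Wnt signals, was 6.56, 6.55 and 7.03 against 10.14, 9.71 and 7.5, a difference of 2.40 (SE 0.62, limma adjusted p = 0.284). The water channel gene Aqp1 was 7.12, 7.15 and 7.44 against 8.22, 8.26 and 7.49, or 0.75 higher (SE 0.21). Tmem212, a gene of ciliated cells, was even across the 2500 ppm arrays, at 7.25, 7.17 and 7.17, against 6.54, 6.68 and 6.79, and 0.53 higher (SE 0.08, limma adjusted p = 0.0901). The list mean, relative to the 6 arrays, was 0.87, 0.79 and -0.16 at 2500 ppm and between -0.57 and -0.43 at 750 ppm. The controls lay between -0.74 and -0.57. In whole tissue, more cells of a type and more RNA per cell cannot be told apart, here and in every list below.

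Genes of meninges and fibroblasts leaned the other way. Of 22, 19 were lower at 2500 ppm, 6 without overlap against a background of 7.85%. In limma the unadjusted p was under 0.05 for 7 lower and 1 higher genes, and none passed. The median was -0.194, or -0.104 without 750 ppm replicate 1 and -0.106 without 2500 ppm replicate 1. The list means of the doses overlapped, at 0.23, 0.06 and -0.02 for 750 ppm and -0.28, -0.04 and 0.05 for 2500 ppm. Lum, a proteoglycan of collagen fibrils, was 11.28, 11.15 and 11.06 at 750 ppm and 10.41, 10.82 and 10.86 at 2500 ppm, a difference of -0.47 (SE 0.13, limma adjusted p = 0.291). The collagen gene Col1a2 was 11.67, 11.64 and 11.32 against 10.79, 11.14 and 11.3, also -0.47 (SE 0.15). Nnat, an imprinted gene, and the retinoid-binding Crabp2 differed by -0.42 and -0.34. All 3 control arrays had lower list means than any of these 6, between -1.3 and -0.45.

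Striatal genes divided the 750 ppm group. Of 19 genes of striatal projection neurons, 17 were lower at 2500 ppm, with a median of -0.680. Without overlap 3 of the 19 were lower and 0 higher, against 7.85% and 8.38% of all genes. The list mean was 0.79 and 0.76 on 750 ppm replicates 1 and 2 and -0.59 on replicate 3, and it was -0.76, 0.14 and -0.33 at 2500 ppm. Replicate 3 was nearer to the 2500 ppm mean than to its own group for 16 of the 19. Drd2, the dopamine receptor of indirect-pathway neurons, shows this split, with 8.88, 8.68 and 7.76 at 750 ppm and 7.38, 7.93 and 7.44 at 2500 ppm (-0.86, SE 0.29, limma adjusted p = 0.361). Tac1, the precursor of substance P, was 10.09, 9.97 and 9.66 against 9.29, 9.08 and 9.34 and did not overlap, at -0.67 (SE 0.12, limma adjusted p = 0.153). Syt6, a synaptotagmin, was -0.49 (SE 0.11). Without replicate 3 the list median was -0.993, and 7 of its genes passed as lower, where 1.67% of all genes did. The median was weaker without 750 ppm replicate 1 (-0.462), 750 ppm replicate 2 (-0.424) or 2500 ppm replicate 1 (-0.460).

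Markers of other neighbouring tissue and of blood were measured as well. Of 15 hippocampal and thalamic genes, 5 were higher and 10 lower, with a median of -0.061. Their list mean was 0.23 and 0.22 on 750 ppm replicates 1 and 2, -0.25 on replicate 3 and between -0.15 and 0 at 2500 ppm. Without replicate 3 the median was -0.342 and 3 passed as lower, where 1.67% of all genes did. The median was 0.024 without 750 ppm replicate 1 and 0.006 without 2500 ppm replicate 3. It was -0.131 without 2500 ppm replicate 2 and -0.006 without 750 ppm replicate 2. All 6 measured blood cell genes were higher at 2500 ppm, 2 without overlap, against 8.38% of all genes, and none past the threshold. Their median of 0.271 was 0.117 without 2500 ppm replicate 1. The blood list mean was between -0.2 and -0.03 at 750 ppm, between 0.06 and 0.2 at 2500 ppm and between -0.51 and -0.3 in controls. Hbb, a globin chain, overlapped, at 14.13, 14.07 and 13.69 against 13.94, 13.95 and 14.01. The part of blood or of neighbouring tissue in the other results was not tested.

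**Figure D3:**
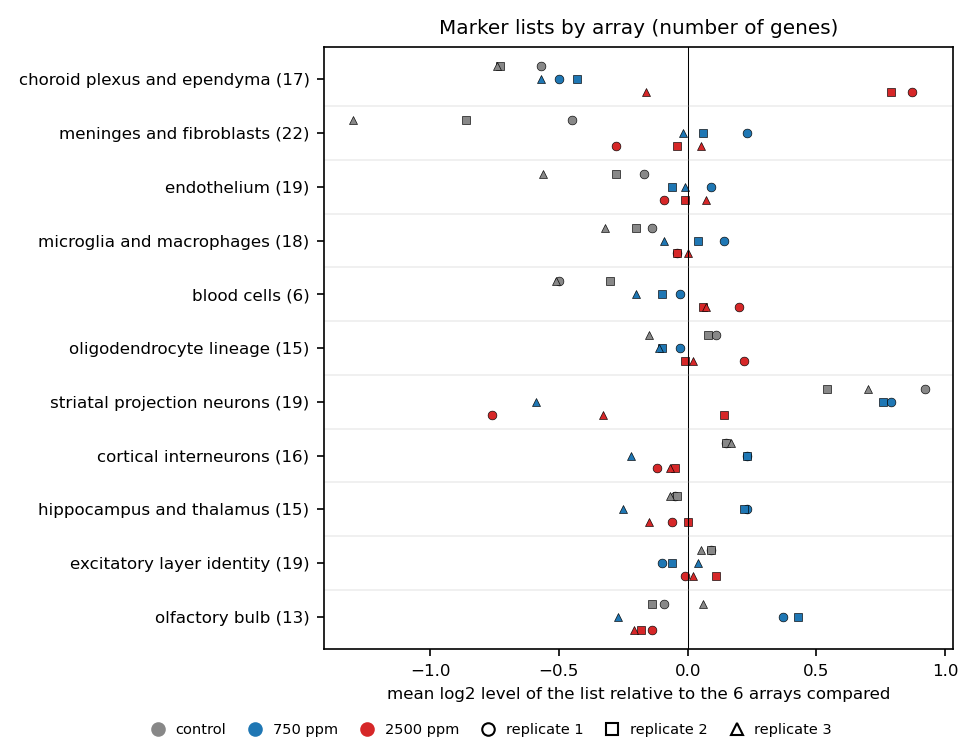
The horizontal axis is the mean log2 level of each list on each array, relative to the 6 arrays compared, with the number of genes in brackets. Colour gives the group and shape the replicate number. Choroid plexus genes are high on 2500 ppm replicates 1 and 2 (0.87 and 0.79), and striatal genes are low on 750 ppm replicate 3 (-0.59).

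Leaving out 750 ppm replicate 3 raised the count of calls from 3 to 652 probe sets (2.10% of all tested), 192 higher (0.619%) and 460 lower (1.48%) at 2500 ppm, which named 382 genes. With 1 probe set per gene, 0.724% of genes passed as higher and 1.67% as lower in that fit. All 24 named genes and all 3 calls were among them. On 472 of the 652, the array left out lay nearer to the 2500 ppm mean than to the other 750 ppm arrays, and on 151 it lay inside the 2500 ppm range. On 346 the doses did not overlap even with it included. The fit without it assumes that 2 arrays describe the 750 ppm pups. That array was singled out from these same values, by its nearness to the 2500 ppm arrays. The rise in calls and the adjusted p-values without it, above, here and below, are therefore a description and no evidence.

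Some inhibitory neuron genes followed that array. Gad2, an enzyme that makes GABA, read 7.84, 8.08 and 6.74 at 750 ppm and 6.66, 6.77 and 6.73 at 2500 ppm. The third 750 ppm pup had the level of the higher dose. The difference was -0.83 (SE 0.31, limma adjusted p = 0.388) with it and -1.24 (adjusted p = 0.00446) without it. The same holds for Sst, somatostatin, at 10.93, 10.78 and 10.13 against 10.15, 10.14 and 10.14, with -0.47 (SE 0.19) and -0.72 (adjusted p = 0.00995). Calb2, calretinin, differed by -0.26. Npy, neuropeptide Y, ran the other way, with 12.02, 12.09 and 11.62 against 12.3, 12.76 and 12.34 and no overlap, 0.56 higher (SE 0.16, limma adjusted p = 0.311). Of the 16 interneuron genes 7 were higher and 9 lower. Without overlap 2 were higher and 0 lower, against 8.38% and 7.85% of all genes. The median was -0.092, or -0.160 without 750 ppm replicate 3, -0.044 without 750 ppm replicate 2 and -0.041 without 2500 ppm replicate 3. By limma the unadjusted p was under 0.05 for 3 lower and 1 higher genes with all 6 arrays and none passed. Without replicate 3, 6 passed as lower, where 1.67% of all genes did.

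Olfactory bulb genes, a list drawn up after these values were seen, split in the same way in their mean. That split is therefore a description and no evidence. Of its 13 measured genes 4 were higher and 9 lower at 2500 ppm, with a median of -0.145. The list mean was 0.37 and 0.43 on 750 ppm replicates 1 and 2, -0.27 on replicate 3 and between -0.21 and -0.14 at 2500 ppm. The controls lay between -0.14 and 0.06. Cdhr1, a cadherin of mitral cells, was 10.59, 10.96 and 8.1 at 750 ppm and 7.81, 8.18 and 7.92 at 2500 ppm. Eomes, a transcription factor of mitral cells and of cortical progenitors, was 7.2, 7.65 and 5.45 against 6.21, 6.07 and 5.74. Not every member split this way. Th and Omp, which mark dopaminergic bulb neurons and olfactory sensory neurons, were flat, between 6.67 and 6.92 and between 6.24 and 6.3. Barhl2 was lower on 750 ppm replicates 1 and 2, at 5.52 and 5.56, than on replicate 3, at 5.87. How much bulb or striatum each dissection held was not tested.

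The circadian clock is a loop in which Bmal1 with Clock or Npas2 drives Per, Cry and Nr1d genes through E-boxes, whose products then repress it. Dbp and Tef are output factors of this loop. Of 17 measured clock genes 12 were higher at 2500 ppm, with a median of 0.102 that was 0.058 without 750 ppm replicate 1. Of the 17, 5 were higher without overlap and 1 lower, against 8.38% and 7.85% of all genes. In limma the unadjusted p was under 0.05 for 6 higher and 0 lower genes, and none passed. RefSeq promoter windows of 300 bases on GRCr8 were matched for 15 of the 17 genes. Only 57.8% of all windows lie 250 bases before to 50 after the end of the annotated gene at which transcription starts, and the 3 windows printed here lie inside their annotated genes. The E-box searched was CACGTG, which reads the same on both strands and is found in 6.42% of 33469 promoter windows. It was in windows of 4 of the clock genes, Nr1d1, Tef, Bhlhe40 and Bhlhe41, and so in 2 of the 5 higher without overlap. The windows below are those 2, with the E-box in capitals, and that of Npas2, the clock gene with the smallest p, which holds no such letters. They are Nr1d1 at chr10:84229405-84229704 on the minus strand, Tef at chr7:115206577-115206876 on the plus strand and Npas2 at chr9:48959315-48959614 on the plus strand.
Nr1d1: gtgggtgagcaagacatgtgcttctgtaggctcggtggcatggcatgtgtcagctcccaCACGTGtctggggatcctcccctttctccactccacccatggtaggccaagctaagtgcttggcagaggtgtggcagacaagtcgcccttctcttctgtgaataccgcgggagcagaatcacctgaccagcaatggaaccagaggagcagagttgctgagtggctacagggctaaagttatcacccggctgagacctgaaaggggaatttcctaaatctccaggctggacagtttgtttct
Tef: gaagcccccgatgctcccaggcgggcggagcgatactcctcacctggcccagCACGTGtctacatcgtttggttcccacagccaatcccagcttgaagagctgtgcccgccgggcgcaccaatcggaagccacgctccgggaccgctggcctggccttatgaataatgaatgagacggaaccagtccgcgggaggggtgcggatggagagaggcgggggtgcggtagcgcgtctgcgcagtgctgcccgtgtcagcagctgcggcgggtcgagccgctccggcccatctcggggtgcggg
Npas2: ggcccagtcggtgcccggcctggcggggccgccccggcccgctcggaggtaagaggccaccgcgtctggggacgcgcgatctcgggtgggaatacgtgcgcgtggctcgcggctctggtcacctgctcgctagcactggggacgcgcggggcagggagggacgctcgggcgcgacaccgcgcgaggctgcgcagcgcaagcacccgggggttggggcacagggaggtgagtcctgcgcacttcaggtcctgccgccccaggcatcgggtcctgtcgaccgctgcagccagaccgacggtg

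The E-box starts at base 60 of the Nr1d1 window and at base 53 of the Tef window, counted from the 5′ end. Nr1d1 has a further window without it. The site of the repressor encoded by Nr1d1 and of its activating counterparts, searched as TNGGTCA on both strands, is in 11.1% of all windows and, among the clock genes, only in that of Bmal1. The D-box bound by Dbp and Tef, searched as TTANNTAA, is in 5.84% of all windows and among the clock genes only in that of Per2. These are letters in a window, and binding was not measured.

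Npas2 read 10.18, 10.42 and 10.28 at 750 ppm and 11.08, 11.15 and 11.02 at 2500 ppm. The controls were between, at 10.75, 10.62 and 10.54, and overlapped neither dose. The difference was 0.79 (SE 0.08, 1.73-fold, limma adjusted p = 0.0532). Nr1d1, which represses Bmal1, was 6.76, 6.96 and 6.73 against 7.4, 7.71 and 7.84, or 0.83 higher (SE 0.12, limma adjusted p = 0.0917). Dbp was 8.07, 8.1 and 8.01 against 8.36, 8.46 and 8.49, or 0.38 higher (SE 0.06, limma adjusted p = 0.119). The groups did not overlap for any of these. Tef and Per1 were each 0.20 higher (SE 0.06 and 0.07) without overlap. Other parts of the loop, given for their role and after their values were seen, showed little difference: Bmal1 -0.04 (SE 0.12), Clock -0.11 (SE 0.10), Per2 0.10 (SE 0.12), Cry1 0.05 (SE 0.08) and Cry2 0.00 (SE 0.09). A second probe set of Per2 was 0.21 higher without overlap (SE 0.07, limma adjusted p = 0.332). The hour at which each pup was taken is not in the labels, and its part in these values was not tested.

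A list of genes that respond to, mediate or inactivate glucocorticoids, the hormones of the adrenal cortex, overlaps with the clock list in Per1. It includes the receptor gene Nr3c1 and Hsd11b2, so not all its members are induced targets. Of 15, 8 were higher and 5 of these had no overlap, against 8.38% of all genes. The median of 0.031 became -0.044 without 750 ppm replicate 3. Klf9, a zinc finger factor induced by glucocorticoid and by thyroid hormone, read 10.33, 10.51 and 10.29 at 750 ppm and 10.86, 10.93 and 11.06 at 2500 ppm. It was 0.58 higher (SE 0.08, limma adjusted p = 0.0901). The controls, at 11.1, 10.53 and 10.65, were all above the 750 ppm arrays, and their range took in that of 2500 ppm. Sgk1, a kinase that regulates ion transport, was 10.97, 10.97 and 10.92 against 11.35, 11.36 and 11.53, or 0.46 higher (SE 0.07, limma adjusted p = 0.0952). Hsd11b2, which inactivates corticosterone, was 0.22 higher (SE 0.08). Other known targets in the same list, named after their values were seen, were level: Fkbp5 differed by -0.04 (SE 0.11) and Tsc22d3 by -0.03 (SE 0.08). Of the 15, 5 higher and 1 lower had an unadjusted limma p under 0.05, and none passed.

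**Figure D4:**
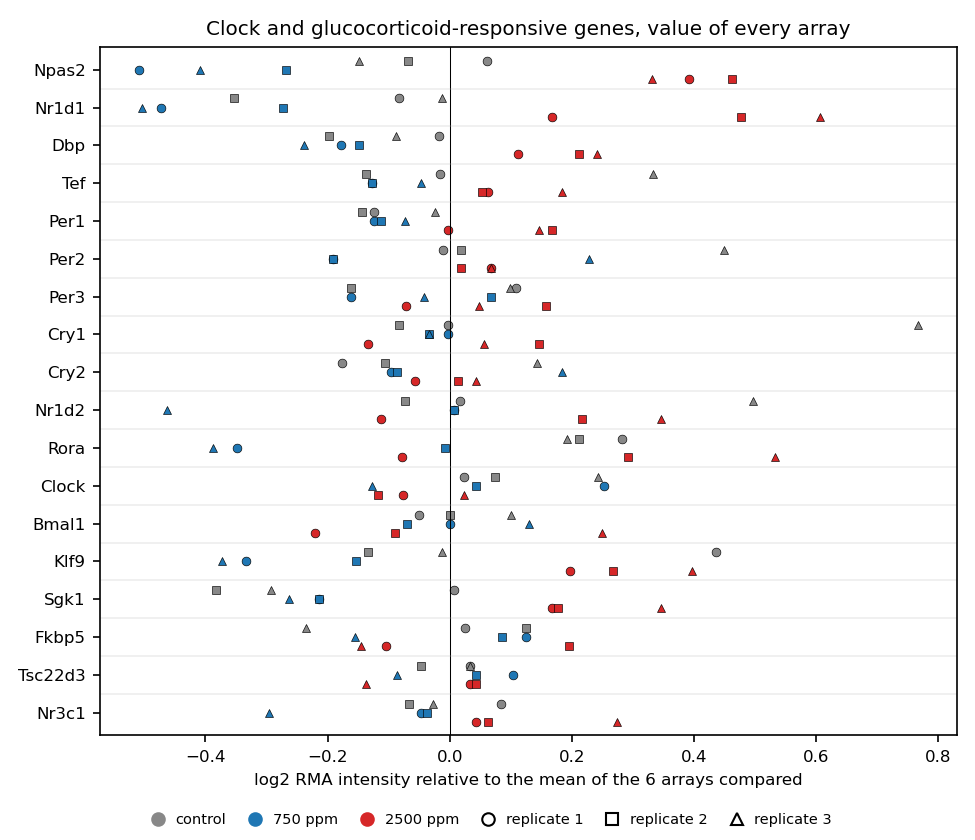
The horizontal axis is the log2 intensity of each array minus the mean of the 6 arrays compared. The upper 13 rows are clock genes, and the lower 5 are genes that respond to or mediate glucocorticoids. The 2500 ppm arrays lie above the 750 ppm arrays for Npas2, Nr1d1, Dbp, Tef, Per1, Klf9, Sgk1 and Nr3c1, and the groups overlap for the rest.

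Genes of cortical neurons by position came next. Of 13 subplate and layer 6b genes, 8 were higher and 5 lower, with 1 call, Cplx3. The median of 0.116 became -0.016 with all probe sets of each gene, and was 0.028, 0.060 and 0.077 without 750 ppm replicate 1, 750 ppm replicate 3 and 2500 ppm replicate 2. Ccn2, a matrix protein that labels the subplate, was 9.68, 9.82 and 9.51 at 750 ppm and 10.23, 10.3 and 10.19 at 2500 ppm. It was 0.57 higher without overlap (SE 0.09, limma adjusted p = 0.0965), and passed without 750 ppm replicate 3 (adjusted p = 0.0276). Inpp4b, a phosphoinositide phosphatase, was 7.82, 7.63 and 7.61 against 6.74, 6.7 and 7.3, at -0.77 (SE 0.16), so the list held genes in both directions. Abca8a, a lipid transporter, was 0.80 higher (SE 0.21).

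Of 19 genes that identify excitatory layers, 11 were higher, 5 without overlap against 8.38% of all genes. The median of 0.104 became -0.014 without 750 ppm replicate 2. Lhx2, a selector gene of cortical identity, was 11.18, 11.41 and 12.08 at 750 ppm and 12.33, 12.44 and 12.22 at 2500 ppm. The difference of 0.77 (SE 0.21, limma adjusted p = 0.296) was 1.03 without 750 ppm replicate 3 (adjusted p = 0.00989), whose value was nearest to the higher dose. Cux2 of the upper layers was 0.41 higher, Pou3f3 0.24 higher, and Crym, a thyroid hormone binding protein, differed by -0.26. Emx1, which specifies the dorsal forebrain, was 8.37, 8.47 and 8.77 against 9.14, 9.38 and 9.38, or 0.76 higher (SE 0.12, limma adjusted p = 0.106). Id2, an inhibitor of helix-loop-helix factors, was 0.37 higher (SE 0.07). Emx1, Lhx2, Id2 and Meis2 belong to a list of 18 forebrain transcription factors, of which 8 were higher and 10 lower, with a median of -0.027. Its list mean split the 750 ppm group, at 0.25, 0.25 and -0.37, and lay between -0.13 and 0.11 at 2500 ppm. Without 750 ppm replicate 3, 2 of its genes passed as higher and 4 as lower, against 0.724% and 1.67% of all genes. The median turned to 0.060 and 0.068 without 750 ppm replicates 1 and 2, and to 0.012 and 0.013 without 2500 ppm replicates 1 and 3.

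Oligodendrocyte genes were mostly higher, 12 of 15, with a median of 0.188. Bcas1, a gene of newly myelinating cells, was 9.77, 9.53 and 9.52 at 750 ppm and 10.95, 10.37 and 10.13 at 2500 ppm, 0.87 higher (SE 0.20, limma adjusted p = 0.225). Sox10, the lineage factor, was 0.40 higher (SE 0.11). Cldn11, a tight junction protein of myelin and of the meninges, was -0.36 (SE 0.09), and Ugt8, which makes galactosylceramide, -0.47 (SE 0.13). In limma the unadjusted p was under 0.05 for 5 higher and 2 lower genes, and none passed. Medians of endothelial, pericyte and microglial genes were 0.000, -0.001 and -0.053, and those of astrocytes and radial glia -0.016.

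Receptors for glutamate and GABA were examined because the series concerns seizures. Of 13 AMPA and kainate receptor genes 8 were lower at 2500 ppm. Without overlap 4 were lower and 1 was higher, against 7.85% and 8.38% of all genes. With all arrays the median was -0.038. It was more negative whichever array was left out, between -0.114 (without 2500 ppm replicate 1) and -0.050. Without 750 ppm replicate 3 it was -0.081. In limma the unadjusted p was under 0.05 for 4 lower and 1 higher genes, and none passed. Grik2, a kainate receptor subunit, was 10.16, 10.07 and 9.57 at 750 ppm and 8.82, 9.17 and 8.98 at 2500 ppm. The difference was -0.95 (SE 0.16, limma adjusted p = 0.134), and -1.13 (adjusted p = 0.00989) without 750 ppm replicate 3. Gria1, an AMPA receptor subunit, was 9.22, 9.45 and 9.03 against 8.66, 8.81 and 8.64, or -0.53 (SE 0.11, limma adjusted p = 0.195). Gria2, the subunit that limits calcium entry, was -0.30 (SE 0.10), and Cacng3, an accessory subunit, -0.53 (SE 0.19) with overlap.

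Of 11 GABA receptor genes, 4 were higher and 7 lower. Gabra2, an alpha subunit abundant in the young forebrain, was 10.56, 11.03 and 10.36 at 750 ppm and 9.98, 9.58 and 9.64 at 2500 ppm. It was lower by -0.91 (SE 0.18, limma adjusted p = 0.173), and Gabbr2, of the metabotropic receptor, was 0.16 higher. The chloride importer gene Slc12a2 (NKCC1), which makes GABA depolarising, was 10.79, 10.73 and 10.65 against 10.94, 11.04 and 11.14. It was 0.32 higher without overlap (SE 0.07, limma adjusted p = 0.236), and its activating kinase Stk39 (SPAK) was 0.39 higher (SE 0.09). The exporter gene Slc12a5 (KCC2) overlapped, at 11.79, 11.72 and 11.19 against 11.46, 11.27 and 11.48 (-0.17, SE 0.16). NMDA receptor genes and their scaffolds had a median of 0.028. Among them Camk2a followed the 750 ppm split, at 10.84, 10.82 and 9.93 against 9.87, 9.94 and 9.88.

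Voltage-gated channels were mixed. Of 32 potassium channel genes 18 were higher and 14 lower. Kcna4, a fast inactivating channel, was 8.99, 8.95 and 8.83 at 750 ppm and 8.42, 8.52 and 8.57 at 2500 ppm, lower by -0.42 (SE 0.07, limma adjusted p = 0.127). Kcnc2 of fast-spiking neurons was -0.36 (SE 0.08) and Kcnh1 0.32 higher (SE 0.08). Ryr2, a calcium release channel of the endoplasmic reticulum, was 9.75, 10.04 and 10.09 against 10.46, 10.56 and 10.67, or 0.60 higher (SE 0.10, limma adjusted p = 0.132). The calcium channel beta subunit gene Cacnb2 was -0.30 (SE 0.07). Sodium channel genes had a median of -0.144, or -0.091 without 2500 ppm replicate 1 and -0.092 without 750 ppm replicate 1. Of these 10 genes, 2 were lower and 1 was higher without overlap, against 7.85% and 8.38% of all genes.

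Of 24 genes of synaptic vesicles and release, 14 were higher and 10 lower, with a median of 0.032. Apart from Cplx3, none passed. Sv2b, a vesicle glycoprotein, was 11.43, 12.06 and 11.61 at 750 ppm and 11.06, 10.93 and 10.84 at 2500 ppm, or -0.75 (SE 0.16, limma adjusted p = 0.194). Syn2, a synapsin that tethers vesicles, was -0.63 (SE 0.15). Activity-regulated genes showed no common direction, with 10 of 20 higher and a median of -0.008. Bdnf, a growth factor induced by neuronal activity, was 7.38, 7.49 and 6.93 against 6.45, 6.36 and 6.64 and did not overlap. It was lower by -0.78 (SE 0.15, limma adjusted p = 0.166), and by -0.95 (adjusted p = 0.0104) without 750 ppm replicate 3. Fos, the classical marker of recent activity, was 8.56, 8.46 and 6.89 against 7.07, 7.17 and 6.66. It differed by -1.0 (SE 0.42) with overlap, and by -1.54 (adjusted p = 0.00995) without 750 ppm replicate 3. Nr4a3, an orphan nuclear receptor, was 0.66 higher (SE 0.24) with overlap, and 0.71 higher (SE 0.16) without overlap on another probe set. Among 22 neuropeptide genes, Vgf was -0.30 (SE 0.08) and Cck 0.21 higher (SE 0.06), beside Tac1 and Npy.

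Adhesion, guidance and matrix genes had members in both directions. Cdh22, a classical cadherin, was 9.62, 10.19 and 9.6 at 750 ppm and 8.78, 8.75 and 8.84 at 2500 ppm, a difference of -1.01 (SE 0.15, limma adjusted p = 0.096). With Cdh13 it was among 4 of 17 cadherins lower at an unadjusted p under 0.05, and 0 were higher at that level. The cadherin median of -0.053 became 0.010 without 2500 ppm replicate 3. Of 14 ephrins and Eph receptors 8 were higher and 6 lower, 2 and 3 of them without overlap, against 8.38% and 7.85% of all genes. The median of 0.098 was 0.034 without 750 ppm replicate 3 and 0.050 without 2500 ppm replicate 2. Without 750 ppm replicate 3, 3 passed as higher and 1 as lower, against 0.724% and 1.67% of all genes. Efnb3 was -0.39 (SE 0.09), Epha6 -0.49 (SE 0.12) and Epha5 -0.39 (SE 0.10), all without overlap. Efna5 was higher, as given above. Among 21 collagens, the unadjusted p was under 0.05 for 5 higher and 5 lower genes. Col8a2, the partner chain of Col8a1, was 8.52, 8.19 and 8.44 against 9.05, 9.16 and 8.81, or 0.62 higher (SE 0.12, limma adjusted p = 0.163). Col14a1, which binds collagen fibrils, was 0.79 higher (SE 0.18). Thus the fibrillar Col1a2 of the meningeal list and the short-chain collagens differed in sign.

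Hormone and vitamin pathways were examined as well. The thyroid hormone list covers transport and response and has 19 measured genes. Of these, 11 were higher and 8 lower, with a median of 0.047. Without overlap 5 were higher, Klf9 and Ttr included, and 2 lower, against 8.38% and 7.85% of all genes. The median was -0.001 without 2500 ppm replicate 3 and 0.093 without 750 ppm replicate 3. Nrgn, a calmodulin-binding protein of excitatory neurons that responds to thyroid hormone, was 11.18, 11.18 and 11.01 at 750 ppm and 11.65, 11.49 and 11.65 at 2500 ppm, or 0.48 higher (SE 0.08, limma adjusted p = 0.113). Camk4, another thyroid-responsive gene, was -0.43 (SE 0.11). In the retinoid pathway, Dhrs3, which reduces retinal, was 0.52 higher (SE 0.17), and Cyp26b1, which degrades retinoic acid, was -0.55 (SE 0.17), both without overlap. In the IGF system, the growth factor gene Igf1 was -0.41 (SE 0.14), with 9.84, 9.82 and 9.31 against 9.17, 9.33 and 9.23.

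Because 4-MeI is an imidazole, genes that make, bind, carry or break down histamine were listed. Of 11, 8 were higher at 2500 ppm, 4 without overlap, and 1 was lower without overlap, against 8.38% and 7.85% of all genes. The median was 0.065, and moved to 0.153 without 2500 ppm replicate 2, 0.101 without 750 ppm replicate 3 and 0.043 without 2500 ppm replicate 3. In limma the unadjusted p was under 0.05 for 5 higher and 2 lower genes, and none passed. Hrh3, the presynaptic histamine receptor, was 7.79, 7.56 and 7.54 at 750 ppm and 7.91, 8.1 and 8.08 at 2500 ppm, or 0.40 higher (SE 0.09, limma adjusted p = 0.225). Slc22a3, an organic cation transporter that takes up histamine, was 8.73, 8.87 and 9.58 against 9.72, 9.87 and 10.17. It was 0.86 higher (SE 0.22, limma adjusted p = 0.285). Hdc, which makes histamine, was dim and 0.41 higher (SE 0.13). Hnmt, which methylates it, was -0.24 (SE 0.09) with overlap.

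Genes of drug metabolism and stress differed little. Of 22 xenobiotic metabolism genes 2 were higher without overlap and 0 lower, against 8.38% and 7.85% of all genes. Their median was 0.043, or -0.019 when the dimmest 50% of probe sets were left out. In limma 2 had an unadjusted p under 0.05. Cyp1a1, the classical target of the aryl hydrocarbon receptor, was dim, at 6.12, 6.08 and 6.33 against 6.34, 6.35 and 6.48, or 0.22 higher (SE 0.08). Slc7a11, the cystine importer induced by oxidative stress, was 10.4, 10.33 and 9.76 against 9.31, 9.63 and 9.66, at -0.63 (SE 0.18, limma adjusted p = 0.309). Cryab, a small heat shock protein, was 7.65, 7.62 and 7.58 against 7.91, 7.97 and 7.93, or 0.32 higher (SE 0.06, limma adjusted p = 0.134). The rest of the chaperone list had no member past an unadjusted p of 0.05.

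Housekeeping lists differed little. Of 23 respiratory chain genes 19 were lower and of 19 cytosolic ribosomal protein genes 18 were lower, with medians of -0.055 and -0.041. In each list 5 were lower without overlap, against 7.85% of all genes, and none passed. Their list means overlapped between the doses, from -0.02 to 0.05 at 750 ppm against -0.04 to 0 and from -0.01 to 0.05 against -0.06 to 0.02. The respiratory chain median was -0.016 without 750 ppm replicate 1. The complex I gene Ndufs1 was the clearest, at 11.39, 11.34 and 11.36 against 11.25, 11.17 and 11.22, or -0.15 (SE 0.06, limma adjusted p = 0.378). Cell cycle genes had a median of -0.010, with Ccnd2, cyclin D2, at -0.71 (SE 0.24) and its low values on 750 ppm replicate 3 and all 2500 ppm arrays. Genes of immature migrating neurons had a median of -0.009.

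**Figure D5:**
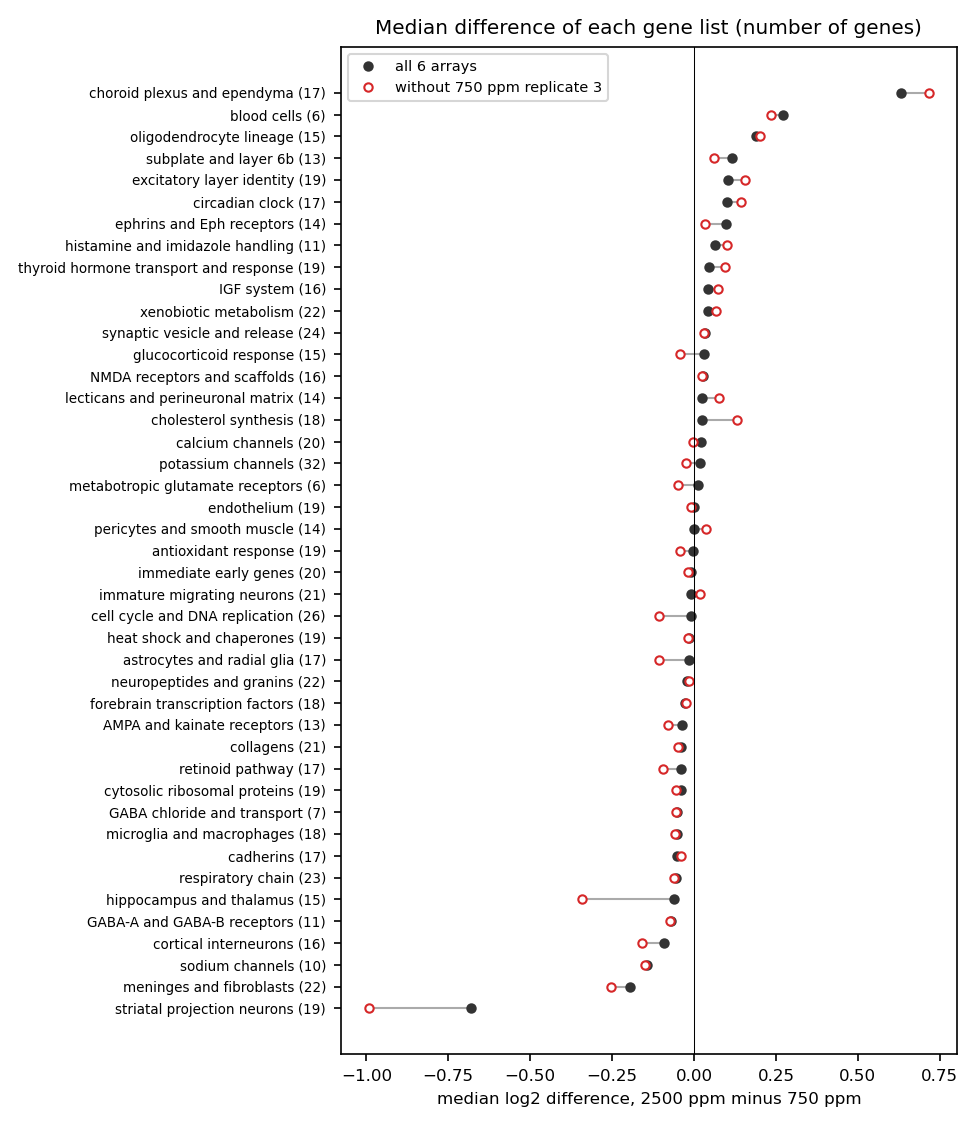
Each row is a gene list with its number of measured genes, and the horizontal axis is its median log2 difference, 2500 ppm minus 750 ppm. Filled points use all 6 arrays and open points leave out 750 ppm replicate 3. Choroid plexus genes stand highest at 0.632 and striatal genes lowest at -0.680, which becomes -0.993 without that array.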

How the data were processed

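From each pup, 100 ng of total RNA was amplified with the 3' IVT Express kit (16 hours of transcription in vitro) and hybridised to Affymetrix Rat Genome 230 2.0 arrays, per the labels' protocols. The authors' deposited values are log2 intensities made with affy and RMA, per the submitters' processing notes, which name no version. RMA corrects background and quantile-normalizes the arrays, so a difference in the total amount of RNA per cell is not seen, and it gives no detection call. The number of arrays limits the precision.

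The 57 AFFX probe sets were left out, and limma 3.58.1 (R 4.3.3, statmod 1.5.0) was fitted to the 6 arrays and all 31042 probe sets, with empirical Bayes variances (prior degrees of freedom 3.32) and Benjamini-Hochberg adjustment. Tests were two-sided, with a threshold of 0.05, and intervals are 95%. With 3 arrays a group, the smallest p of an exact permutation test is 0.1. The fit was first tested on simulated data. Pups came from different litters.

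Names came from the platform annotation, checked by Entrez identifier against GRCr8. Of the probe sets, 20826 carried 1 symbol, 436 several and 9780 none, and only the first kind was named. The rule took probe sets past the threshold with no overlap, up to 12 in each direction, and added, up to 24 in all, the genes without overlap that differed by at least 0.5 and had the lowest unadjusted p. Up to 4 members of each of 44 gene lists were named by p. For lists, the probe set with the highest mean stood for each of 14217 genes, and no list was tested. The contrast, the lists and the rule were chosen with earlier results of these data known, and the olfactory bulb list and a few members after the values here were seen.

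The alternatives tried were median-centring, removal of dim probe sets, a further quantile normalization, all 9 arrays, a replicate block, array weights, trend and robust variances, 1 probe set per gene, all probe sets of each gene, an adjusted p of 0.10 and leaving out each array. Same-numbered arrays were checked for shared deviations from their group means and showed none in common, with correlations of -0.175, 0.259 and 0.136, so the number is not taken to pair pups.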

Additional observations from a re-analysis of the deposited data

How the results depend on the processing

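The count of 3 probe sets past the threshold moved with nearly every choice. Leaving out 1 array gave between 0 and 652 probe sets past the threshold, and between 2332 and 5967 at an unadjusted p under 0.05. The count of calls was 14 without the dimmest 30% of probe sets, 16 without the dimmest 50%, 19 after a further quantile normalization, 68 with all 9 arrays in the fit, 56 with trend and robust variances, 109 with array weights and 86 at an adjusted p of 0.10. It stayed at 3 after median-centring and with 1 probe set per gene. With the replicate number as a block, 1 probe set passed and none of the 24 named genes did, and C1ql3, Cplx3 and Ap1s3 each had a limma adjusted p of 0.0677. At an unadjusted p under 0.05 there were 2116 without the dimmest 50% and 1748 with 1 probe set per gene, both over fewer features. After median-centring 2006 of the 3625 were higher and 1619 lower, against 1799 and 1826, and without the dimmest 50% 760 were higher and 1356 lower.

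Each of the 24 named genes kept its sign in every fit in which its probe set was present. The rule required groups without overlap, so leaving out an array could not reverse a sign. The fits with all 9 arrays, with the replicate block or with trend and robust variances leave each difference unchanged. The kept signs are therefore a description and no evidence of stability. All 24 passed without 750 ppm replicate 3, with array weights and with trend and robust variances, and 21 passed with all 9 arrays. The other probe sets of C1ql3 (0.10) and Pacsin1 (0.20) had the opposite sign. Of 43 list medians, 14 kept their sign under every alternative tried, choroid plexus, meninges, striatum, interneurons and the circadian clock among them. A kept sign does not settle a direction, since some of these fits leave every difference unchanged. For meninges and striatum the list means of the doses overlapped. The other 29, none farther from 0 than 0.116, changed sign under at least 1, so their directions are not settled. When 1 array was left out, that of excitatory layer genes lay between -0.014 (without 750 ppm replicate 2) and 0.156, that of calcium channels between -0.004 (without 750 ppm replicate 3) and 0.046, and that of cadherins between -0.059 and 0.010 (without 2500 ppm replicate 3). Without the dimmest 50% the median was 0.002 for GABA receptors and -0.019 for xenobiotic metabolism. The cause was not tested in any of these. Detection calls were not used here, so the signal over background behind a value is not known here.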
